A study of Homo sapiens with 6 samples.

Results

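The 10 genes described here belong to the cornified envelope or its assembly: the transglutaminases TGM1, TGM2 and TGM3, the envelope proteins IVL (involucrin), SCEL (sciellin) and CNFN (cornifelin), the plakins PPL (periplakin) and EVPL (envoplakin), and the secreted proteins KRTDAP and SBSN (suprabasin).
They were taken by name, at every probe set whose only annotated symbol is 1 of the 10. This gave 16 of the 54613 probe sets tested: 4 for TGM2, 4 for SCEL and 1 for each of the other 8 genes. Values are log2 intensities of an Affymetrix array read in MCF10A, a line of human mammary epithelial cells that forms no tumours. The groups were MCF10A cells with C/EBPbeta-2, which is 1 of several proteins translated from CEBPB mRNA and regulates transcription (3 arrays), and MCF10A cells alone, called control (3 arrays). All cells grew in the same medium with horse serum, insulin, hydrocortisone, epidermal growth factor and cholera toxin, and received no treatment. The sources used here give neither the means by which the cells acquired C/EBPbeta-2 nor whether they were a pool or 1 clone. The replicates are labelled biological, without saying what separated them, so each p-value here reflects the variation among these 6 arrays, which may be technical.

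In stratified epithelia, cells that finish differentiation replace the plasma membrane with a cornified envelope, a layer of proteins joined by bonds between glutamine and lysine side chains. Transglutaminases make these bonds: TGM1 sits at the membrane of keratinocytes, TGM3 acts late in epidermis and hair, and TGM2 is a widely expressed enzyme that also binds GTP and works outside stratified epithelia. Involucrin, periplakin and envoplakin form the first scaffold under the membrane, and other precursors are added to it. MCF10A is a mammary line with basal features, and it is not an epidermal one, so the 10 genes are a description of a gene group and not of a cornifying tissue. KRTDAP and SBSN are secreted by differentiating keratinocytes.

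RefSeq windows around the gene start (GRCh38.p14) were at hand for 6 of the 10 genes: IVL, SCEL, KRTDAP, SBSN, CNFN and TGM3. They were searched on both strands for the C/EBP motif TTNNGNAA, its stricter form TTGCNNAA, which can overlap it, and the AP-1 motif TGANTCA, because C/EBP and AP-1 factors are known for the involucrin promoter. The 4 windows with a match are given here for the 250 bases before the start, with matches to TTNNGNAA or TGANTCA in capitals. IVL lies at chr1:152908296-152908545 (plus strand), SCEL at chr13:77535456-77535705 (plus strand), KRTDAP at chr19:35490465-35490714 (minus strand) and SBSN at chr19:35528312-35528561 (minus strand).
IVL: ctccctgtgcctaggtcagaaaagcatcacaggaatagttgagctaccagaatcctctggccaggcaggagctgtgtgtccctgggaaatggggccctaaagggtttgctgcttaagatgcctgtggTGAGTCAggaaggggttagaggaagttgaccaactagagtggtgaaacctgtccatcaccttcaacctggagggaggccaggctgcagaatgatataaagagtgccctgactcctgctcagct
SCEL: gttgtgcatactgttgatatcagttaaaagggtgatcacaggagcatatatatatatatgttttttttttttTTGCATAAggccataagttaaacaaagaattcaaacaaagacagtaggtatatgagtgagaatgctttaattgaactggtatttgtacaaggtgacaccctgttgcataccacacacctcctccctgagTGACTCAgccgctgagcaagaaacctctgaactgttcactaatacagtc
KRTDAP: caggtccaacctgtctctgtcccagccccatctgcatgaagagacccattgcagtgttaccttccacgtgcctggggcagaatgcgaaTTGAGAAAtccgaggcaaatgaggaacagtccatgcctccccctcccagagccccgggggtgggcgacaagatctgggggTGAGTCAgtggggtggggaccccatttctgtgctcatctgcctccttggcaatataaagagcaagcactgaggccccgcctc
SBSN: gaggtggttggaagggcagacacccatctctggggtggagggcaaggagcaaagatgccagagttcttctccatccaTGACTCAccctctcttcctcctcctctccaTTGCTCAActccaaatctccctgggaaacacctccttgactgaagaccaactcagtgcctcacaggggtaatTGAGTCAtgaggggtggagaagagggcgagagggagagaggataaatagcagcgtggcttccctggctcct

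Over the whole window, from 250 bases before to 50 after the start, TGANTCA was found in 4 of the 6 genes and TTNNGNAA in 3 of the 6. Of all 35116 RefSeq windows, 7.71% held TGANTCA, 36.8% held TTNNGNAA and 10.5% held TTGCNNAA. IVL held 1 AP-1 match, which began 123 bases before the start, and no C/EBP match. SCEL had a C/EBP match (TTGCATAA) from 178 bases before the start and an AP-1 match from 49 bases before it. KRTDAP had a C/EBP match (TTGAGAAA) from 162 bases before the start and an AP-1 match from 82 bases before it. SBSN had a C/EBP match (TTGCTCAA) from 143 bases before the start and 2 AP-1 matches, from 173 and 71 bases before it. CNFN and TGM3 held none of these letters in the window. A match is a description of the letters and shows no binding.

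The arrays differed in ways that the groups do not explain. Signal at the 18S ribosomal RNA control probe sets was high on C/EBPbeta-2 replicate 1 (mean 12.19) and control replicate 2 (12.17), and 5.62 to 10.33 on the other 4 arrays. The poly-A spike-in RNA was low on C/EBPbeta-2 replicate 2 (3.85) and control replicate 1 (3.98) and was 7.21 to 8.25 elsewhere, so each level holds samples of both groups. On these same arrays the ACTB control read higher at its 3' end than at its 5' end, by 1.32 and 1.48. The ACTB difference was -0.04 to 0.64 on the other 4 arrays, and that of GAPDH was 0.12 to 0.32 on all arrays. The array medians lay between 4.46 and 4.56. No detection calls were used, and a level below the medians is called dim here. Of the 10 genes, 5 had both group means above every array median (TGM1, TGM2, PPL, EVPL and CNFN) and 2 had both below (IVL and TGM3). CEBPB itself read 10.29, 10.50 and 11.38 on the C/EBPbeta-2 arrays, against 11.27, 11.38 and 11.37 on the control arrays (log2 difference -0.62, SE 0.29 in the probe set fit, adjusted p = 1.00, limma). The mean CEBPB signal was thus lower with C/EBPbeta-2 (10.72) than in control (11.34). Neither the position of its probes relative to an introduced sequence nor the amount of introduced RNA was tested. The CEBPB values therefore leave the labels unchecked.

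None of the 10 genes changed at the threshold used, an adjusted p under 0.05. Limma called 0 of the 16 probe sets over all probe sets, where 0.0659% of all were called (0.0275% higher and 0.0385% lower), and 0 of the 10 genes over all genes, where 0.273% were (0.091% higher and 0.182% lower). At an unadjusted p under 0.05 stood 4 of the 10 genes, TGM1, TGM2, KRTDAP and SBSN, against a background of 5.17%, and 6 of the 16 probe sets, against 3.98%. Of these 6 probe sets 3 read TGM2 and ran alike, so they are not separate results. The genes were chosen with earlier results of these data known, so these shares are no test of the group. The groups did not overlap in the same 4 genes (8.63% of all genes), lower with C/EBPbeta-2 in 3 (4.01% of all genes) and higher in TGM2 (4.62% of all genes). Of the probe sets 3 did not overlap and were lower (3.75% of all) and 3 did not overlap and were higher (3.87% of all); in either direction 7.62% of all probe sets did not overlap. The median log2 difference over the 10 genes was -0.70, with 8 negative and 2 positive, beside 0.01 over all 19775 genes. In a bulk sample, fewer cells that express a gene and less RNA of it per cell cannot be told apart.

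**Figure D1:**
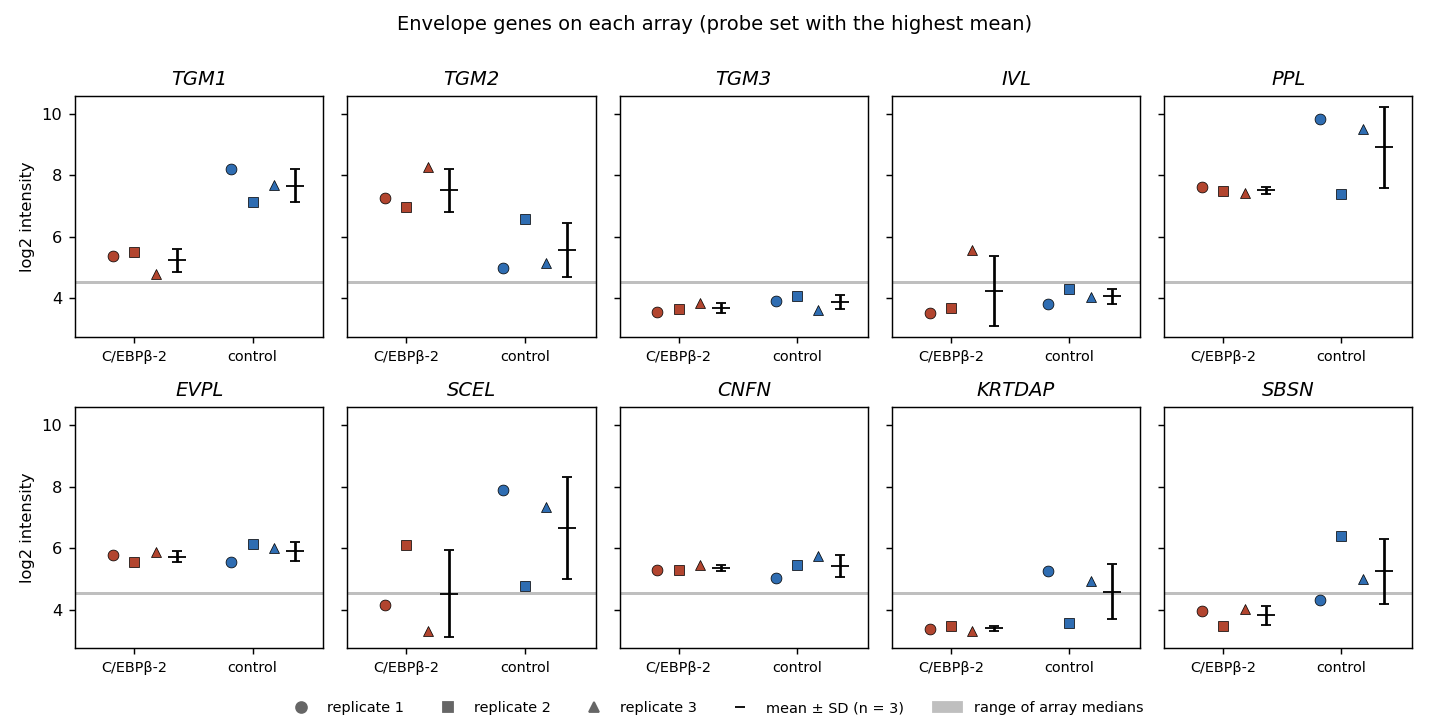
Log2 intensity (vertical axis) of each of the 10 genes on the 3 C/EBPbeta-2 arrays (red, left) and the 3 control arrays (blue, right), with symbols for the replicates, black bars for the mean ± SD and a grey band for the array medians (4.46 to 4.56). TGM1 and TGM2 separate the groups in opposite directions, and control replicate 2 (square) lies near the C/EBPbeta-2 arrays for PPL and KRTDAP.

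TGM1, the membrane-bound transglutaminase that crosslinks the envelope, came closest to a call. Its probe set 206008_at read 5.37, 5.52 and 4.80 on the C/EBPbeta-2 arrays, against 8.20, 7.13 and 7.69 on the control arrays. All 3 C/EBPbeta-2 arrays lay below all 3 control arrays. The mean was 5.23 ± 0.38 with C/EBPbeta-2 and 7.67 ± 0.54 in control (SD, n = 3 each), a 5.42-fold lower intensity. The log2 difference was -2.44 (SE 0.32, 95% interval -3.21 to -1.67), with a limma adjusted p of 0.0514 over all genes and 0.102 over all probe sets. By p it ranked 57 among the 19775 genes. Between the 2 arrays with little spike-in RNA (the low-spike pair) the difference was -2.68, and over the other 4 arrays -2.32. TGM1 was called in 7 of 17 alternatives, with an adjusted p of 0.00642 to 0.314 and a difference of -2.78 to -2.03 over them. One of these left out control replicate 2, the lowest control array (difference -2.71, adjusted p = 0.0342).

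TGM2, the widely expressed transglutaminase, had higher values with C/EBPbeta-2. Its brightest probe set (201042_at) read 7.25, 6.99 and 8.29 on the C/EBPbeta-2 arrays, against 4.98, 6.59 and 5.14 on the control arrays. The lowest C/EBPbeta-2 array lay above the highest control array, control replicate 2, by less than the spread within either group. The mean was 7.51 ± 0.69 with C/EBPbeta-2 and 5.57 ± 0.89 in control (SD, n = 3 each), a 3.84-fold higher intensity. The log2 difference of 1.94 (SE 0.52, 95% interval 0.72 to 3.17) was not called (limma adjusted p = 0.417). It was 2.01 in the low-spike pair of arrays and 1.91 over the other 4. The call appeared with array weights alone of the 17 alternatives (difference 2.61, adjusted p = 0.0382), and the difference was 1.09 when the 4 probe sets of TGM2 were averaged.

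The probe sets of TGM2 did not all read the same pattern. Probe set 211573_x_at had 5.71, 5.29 and 5.97 on the C/EBPbeta-2 arrays, against 4.42, 4.59 and 4.08 on the control arrays (difference 1.29, SE 0.23, adjusted p = 0.279 over all probe sets). Probe set 211003_x_at had 5.57, 5.13 and 6.08 with C/EBPbeta-2, against 4.30, 4.96 and 4.44 in control (difference 1.02, SE 0.30, adjusted p = 0.769). Neither overlapped between groups, and both followed 201042_at over the 6 arrays, with Pearson's r of 0.93 and 0.98. Names ending in _x_at mark probes that can bind other transcripts too. Probe set 216183_at had 5.43, 5.14 and 4.67 with C/EBPbeta-2, against 4.89, 5.35 and 4.69 in control, and its groups overlapped (difference 0.11, SE 0.26, r of 0.20 with 201042_at). Which part of the transcript each probe set reads was not used here.

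**Figure D2:**
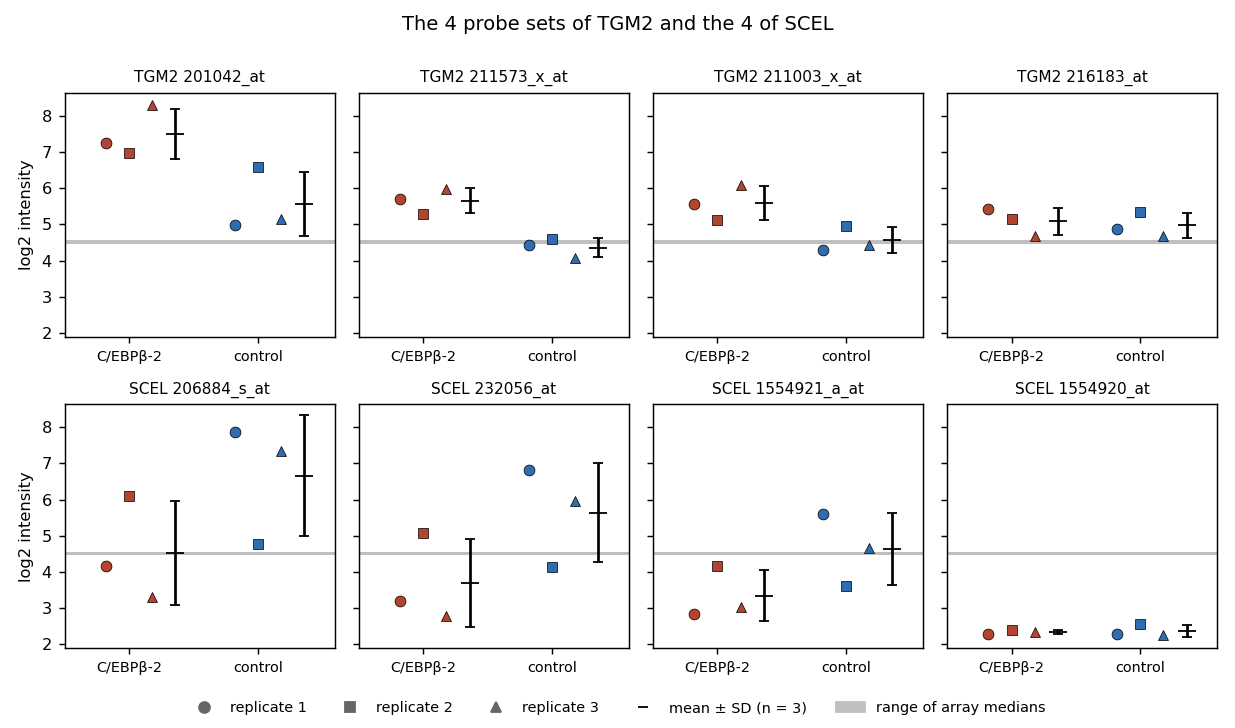
Log2 intensity (vertical axis) at the 4 probe sets of TGM2 (top) and the 4 of SCEL (bottom), C/EBPbeta-2 arrays in red on the left and control arrays in blue on the right, with mean ± SD (n = 3) in black and the array medians as a grey band. Of TGM2, 216183_at stands apart from the other 3 probe sets, and of SCEL, 1554920_at stays between 2.25 and 2.57 on every array.

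TGM3, the transglutaminase of late epidermal and hair differentiation, was dim. It read 3.54, 3.66 and 3.84 on the C/EBPbeta-2 arrays, against 3.92, 4.08 and 3.63 on the control arrays, all under the array medians. The groups overlapped, and the 95% interval of the difference (-0.20, SE 0.19) was -0.65 to 0.26. The other 6 members of the family (TGM4, TGM5, TGM6, TGM7, the clotting factor chain F13A1 and EPB42, a red cell protein without enzyme activity) differed by -0.34 to 0.04, with 0 called and 0 at an unadjusted p under 0.05. The largest sizes were those of TGM5 (-0.34) and TGM4 (-0.30). Each read at its brightest probe set, TGM1 and TGM2 alone of this family had groups without overlap, as had 8.63% of all genes. Of the other 6 members, 2 had a C/EBPbeta-2 mean above the array medians and 3 a control mean above them. A difference in the dim members may be missed here.

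Involucrin, the glutamine-rich substrate that starts the scaffold, did not differ beyond its spread. IVL (214599_at) read 3.51, 3.68 and 5.56 on the C/EBPbeta-2 arrays, against 3.83, 4.31 and 4.04 on the control arrays. C/EBPbeta-2 replicate 3 was the single array above its own median, and the other 5 were below. The log2 difference was 0.19 (SE 0.53, 95% interval -1.08 to 1.46, limma adjusted p = 1.00). It turned to -0.47 without C/EBPbeta-2 replicate 3, and it was -0.15 in the low-spike pair of arrays and 0.36 over the other 4. This interval is wide enough to hold a change of more than 2-fold in either direction.

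Sciellin, a precursor that is crosslinked into the envelope of stratified epithelia, varied widely within both groups. SCEL (206884_s_at) read 4.16, 6.10 and 3.31 on the C/EBPbeta-2 arrays, against 7.88, 4.77 and 7.34 on the control arrays. C/EBPbeta-2 replicate 2 lay above control replicate 2, so the groups overlapped. The log2 difference was -2.14 (SE 0.98, 95% interval -4.47 to 0.18, limma adjusted p = 1.00). Within the low-spike pair, which holds the highest array of each group, the difference was -1.78, and over the other 4 arrays -2.32. Without control replicate 2 it was -3.09 (adjusted p = 0.316), and with array weights -3.23 (adjusted p = 0.127). With 16 added to each intensity the difference was -1.57. C/EBPbeta-2 replicates 1 and 3 lay under the array medians, so its size is uncertain.

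Probe sets 232056_at and 1554921_a_at of SCEL ordered the arrays nearly alike, with Pearson's r of 0.99 and 0.96 with 206884_s_at over 6 arrays. Probe set 232056_at read 3.19, 5.08 and 2.80 with C/EBPbeta-2, against 6.82, 4.15 and 5.95 in control (difference -1.95, SE 0.83). Probe set 1554921_a_at read 2.85, 4.16 and 3.03 with C/EBPbeta-2, against 5.61, 3.61 and 4.67 in control (difference -1.29, SE 0.57). Both overlapped between the groups. Probe set 1554921_a_at was dim on every C/EBPbeta-2 array and on control replicate 2. Dim arrays of 232056_at were C/EBPbeta-2 replicates 1 and 3 and control replicate 2. Probe set 1554920_at stayed at 2.29 to 2.39 with C/EBPbeta-2 and 2.25 to 2.57 in control, the dimmest of the 16.

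Cornifelin, a small envelope protein, was close between groups. CNFN (224329_s_at) read 5.30, 5.27 and 5.46 on the C/EBPbeta-2 arrays, against 5.04, 5.45 and 5.74 on the control arrays, and the C/EBPbeta-2 values lay inside the control range. Its log2 difference was -0.07 (SE 0.22, 95% interval -0.59 to 0.45), and it was 0.10 without control replicate 3 and 0.24 in the low-spike pair of arrays.

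The plakins link the envelope to keratin filaments and desmosomes, and the partners PPL and EVPL, which can pair with each other, gave different patterns. PPL (203407_at) read 7.62, 7.49 and 7.42 on the C/EBPbeta-2 arrays, against 9.84, 7.41 and 9.51 on the control arrays. Control replicate 2 lay just below all C/EBPbeta-2 arrays, and the other control arrays lay far above them. The SD was 0.10 with C/EBPbeta-2 and 1.32 in control. The log2 difference was -1.41 (SE 0.60, 95% interval -2.84 to 0.02, limma adjusted p = 0.984). Without control replicate 2 it was -2.16 and was called (adjusted p = 0.0236). Without control replicate 1 it was -0.95. The low-spike pair gave -2.35 and the other 4 arrays -0.94. Without both C/EBPbeta-2 replicate 1 and control replicate 2 it was -2.22 (adjusted p = 0.0769). Control replicate 2 (7.41) is 1 of the 2 arrays with most 18S signal. The other is C/EBPbeta-2 replicate 1 (7.62), and every C/EBPbeta-2 array lay near control replicate 2. The part of the 18S signal in the result was not tested.

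EVPL (204503_at) read 5.76, 5.53 and 5.88 on the C/EBPbeta-2 arrays, against 5.55, 6.14 and 6.0 on the control arrays. The groups overlapped, and the log2 difference was -0.17 (SE 0.21, 95% interval -0.68 to 0.34). The 4 other plakins that were listed had 0 calls and 0 at an unadjusted p under 0.05. DST (dystonin, of hemidesmosomes) differed by 0.73 and DSP (desmoplakin) by -0.56, and PLEC and MACF1 by 0.06 and -0.09.

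**Figure D3:**
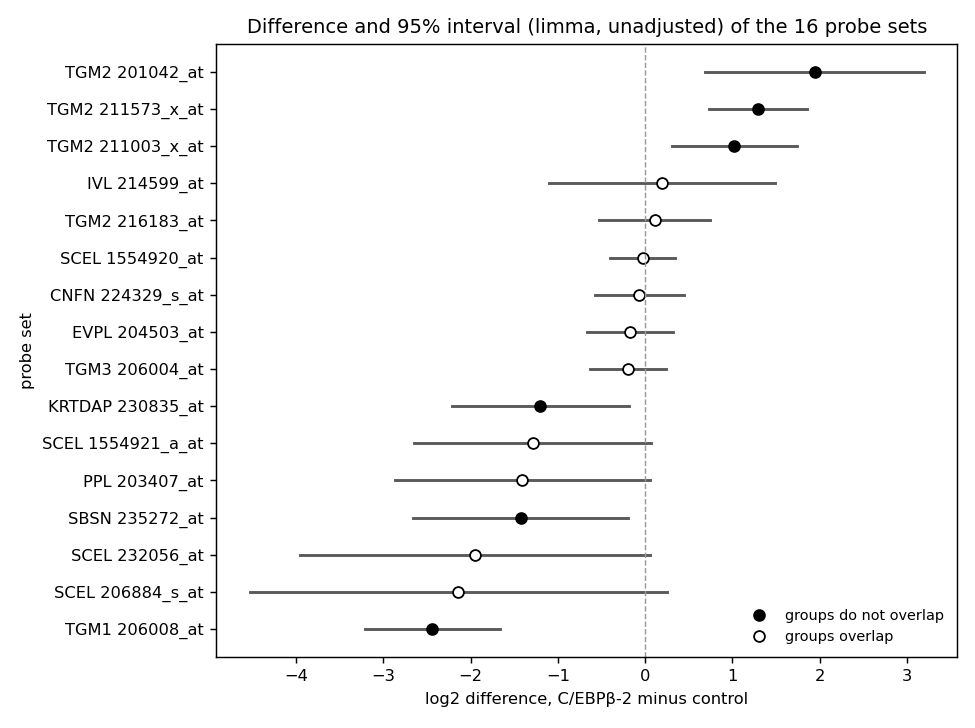
Log2 difference, C/EBPbeta-2 minus control (horizontal axis), of the 16 probe sets with the 95% interval of the probe set fit, not adjusted for the number tested. Filled points mark the 6 probe sets whose groups did not overlap, and they are TGM1, 3 of TGM2, KRTDAP and SBSN.

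KRTDAP, the keratinocyte differentiation-associated protein, and SBSN, suprabasin, were dim on all 3 C/EBPbeta-2 arrays and had control means of 4.58 and 5.24, above every array median. Every C/EBPbeta-2 array lay below every control array in both genes. KRTDAP (230835_at) read 3.37, 3.47 and 3.31 on the C/EBPbeta-2 arrays, against 5.24, 3.57 and 4.93 on the control arrays. The groups did not overlap, but control replicate 2 lay close to the C/EBPbeta-2 arrays. KRTDAP differed by -1.20 on the log2 scale (SE 0.42, 95% interval -2.20 to -0.20, limma adjusted p = 0.732). Without control replicate 2 it was -1.70 and was called (adjusted p = 0.0342), and with 16 added to each intensity it was -0.64 (adjusted p = 0.934). The low-spike pair gave -1.77 and the other 4 arrays -0.91. All 3 C/EBPbeta-2 values and that of control replicate 2 lay under the array medians, and the size of a difference from a dim level is uncertain.

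SBSN (235272_at) read 3.95, 3.46 and 4.03 on the C/EBPbeta-2 arrays, against 4.31, 6.40 and 5.01 on the control arrays. Here control replicate 2 was the highest array and control replicate 1 the lowest of its group, the reverse of their order in KRTDAP. SBSN differed by -1.43 on the log2 scale (SE 0.51, 95% interval -2.64 to -0.21, limma adjusted p = 0.757). Without control replicate 2 it was -0.85 (adjusted p = 0.579) and with 16 added to each intensity -0.89. It was -0.85 in the low-spike pair of arrays and -1.71 over the other 4. Each C/EBPbeta-2 value and that of control replicate 1 lay under the array medians, so the size of this difference is uncertain too.

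Between KRTDAP and SBSN on chromosome 19 lies 1 other protein-coding gene, DMKN (dermokine), which also encodes a secreted protein of differentiating keratinocytes. It was looked at because of its position, after the values of its neighbours were seen. DMKN (226926_at) read 5.65, 4.58 and 5.59 on the C/EBPbeta-2 arrays, against 6.98, 8.26 and 8.04 on the control arrays. The groups did not overlap, and the log2 difference of -2.49 (SE 0.43 in the probe set fit) was not called over all genes (limma adjusted p = 0.123, and 0.102 to 0.501 with any 1 array left out). The 3 neighbours were thus each lower on all C/EBPbeta-2 arrays, as were 4.01% of all genes.

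**Figure D4:**
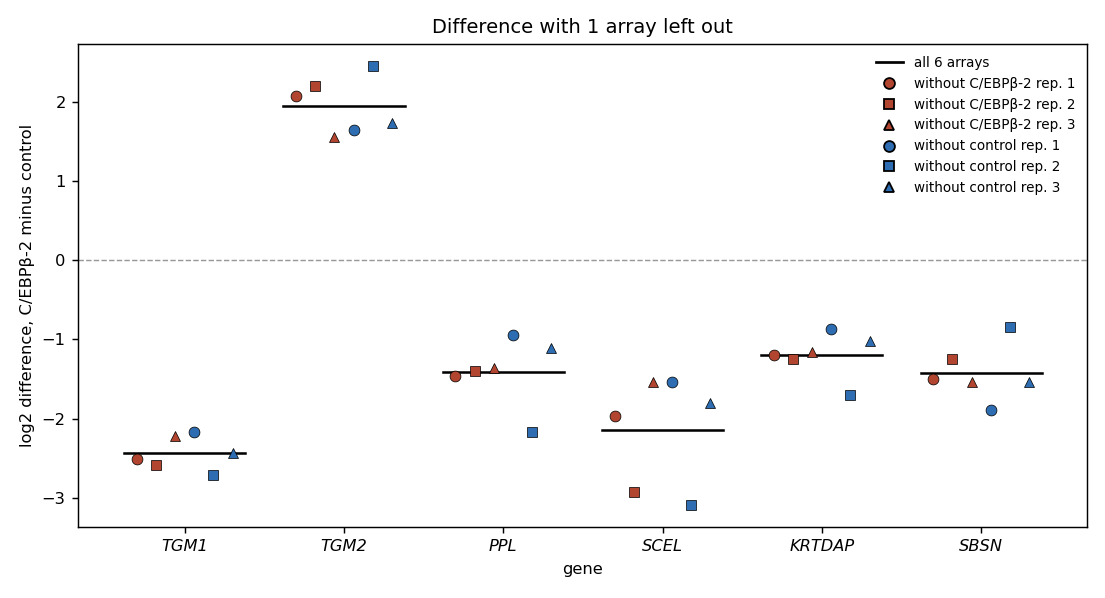
Log2 difference, C/EBPbeta-2 minus control (vertical axis), of 6 genes with all 6 arrays (black line) and with 1 array left out (points, coloured by the group of the left-out array). Without control replicate 2 (blue squares) the difference of PPL was -2.16 and that of SCEL -3.09, while that of SBSN was -0.85.

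The 10 genes stand among other genes of squamous differentiation, given here from lists written with earlier results of these data known. Of 18 measured other precursors of the envelope, 4 fell and 0 rose, where 0.182% of all genes were called lower. These were the small proline-rich proteins SPRR1B (-4.61), SPRR1A (-3.42) and SPRR3 (-2.67), and CSTA, the protease inhibitor cystatin A (-3.20). SPRR1A was read at an _x_at probe set, whose probes can bind other transcripts too. SPRR3 was dim on all C/EBPbeta-2 arrays (3.84 to 4.26). CSTA (204971_at) read 9.83, 8.31 and 9.46 on the C/EBPbeta-2 arrays, against 12.40, 12.10 and 12.68 on the control arrays (SE 0.40, limma adjusted p = 0.0432). Only with C/EBPbeta-2 replicate 2 left out did CSTA keep its call, and with each other array left out its adjusted p was 0.0662 to 0.246. The call of SPRR1B held whichever array was left out, that of SPRR1A was lost without C/EBPbeta-2 replicate 3 (0.0689) or control replicate 3 (0.0850), and that of SPRR3 was kept only without control replicate 2 (otherwise 0.0723 to 0.191). SPRR2B differed by -1.68 and was not called. The median of this list was -0.07, beside 0.01 over all genes. Loricrin and filaggrin are precursors of the late epidermal envelope. LORICRIN lay near the array medians and FLG was dim: LORICRIN read 4.07 to 4.55 with C/EBPbeta-2 and 4.26 to 4.63 in control, and FLG read 2.78 to 3.10 with C/EBPbeta-2 and 2.57 to 3.05 in control.

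Among 6 measured suprabasal keratins, 1 fell, KRT13 (-1.71, SE 0.16, adjusted p = 0.0221), and 0 rose. Over all genes, 0.182% were called lower and 0.091% higher. KRT13 read 3.14 to 3.36 with C/EBPbeta-2, which is dim, and 4.84 to 5.10 in control, so the size of its difference is uncertain. With 1 array left out it kept its call only without control replicate 2 (otherwise adjusted p 0.0750 to 0.145). All 6 differences were negative, with a median of -1.31, beside 0.01 over all genes. Of these keratins 2 had a C/EBPbeta-2 mean above the array medians, and 5 had a control mean above them. KRT4 (-2.46), KRT16 (-1.76) and KRT10 (-0.90) were at an unadjusted p under 0.05 without a call. Over all genes, 5.17% were under that p in either direction. KRT4 was dim on every C/EBPbeta-2 array (3.60 to 3.69) and on control replicate 2 (4.21), so the size of its difference is uncertain. Of 8 measured genes of corneodesmosomes and desquamation, 0 were called and 2 were at an unadjusted p under 0.05, the kallikrein proteases KLK7 (-2.22) and KLK5 (-1.62). Limma called 0 of 10 lipid envelope enzymes, with 0 at an unadjusted p under 0.05. The largest sizes there were -1.06 in the lipid transporter ABCA12 and 0.58 in UGCG, which makes glucosylceramide.

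Of 15 measured transcription factors of squamous differentiation, 0 were called, and 3 were at an unadjusted p under 0.05 (5.17% of all genes). These were GRHL3 (-2.13), a grainyhead factor needed for the skin barrier in mice, the receptor NOTCH1 (-0.98) and the AP-1 subunit JUN (0.69). GRHL3 (232116_at) read 4.85, 6.15 and 4.32 on the C/EBPbeta-2 arrays, against 7.78, 6.51 and 7.42 on the control arrays, with no overlap. ZNF750, a repressor and activator of epidermal genes, differed by -1.15 and was not called. It read 2.35 to 2.78 with C/EBPbeta-2, against 5.07, 2.73 and 3.28 in control. Its groups overlapped, and it was dim on every array except control replicate 1. The median of these factors was 0.06. Of 6 measured annexins and other substrates, 1 fell, PI3 (elafin, -4.65, SE 0.49, adjusted p = 0.0245), a protease inhibitor that transglutaminase anchors. Over all genes, 0.182% were called lower. PI3 read 4.12 to 4.62 with C/EBPbeta-2 (mean 4.36, which is dim) and 7.92 to 9.93 in control, so the size of its difference is uncertain. PI3 kept its call without control replicate 1 or 2, and leaving out any other array gave an adjusted p of 0.0797 to 0.180. The protease inhibitor TIMP1 differed by -0.89 and was not called.

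**Figure D5:**
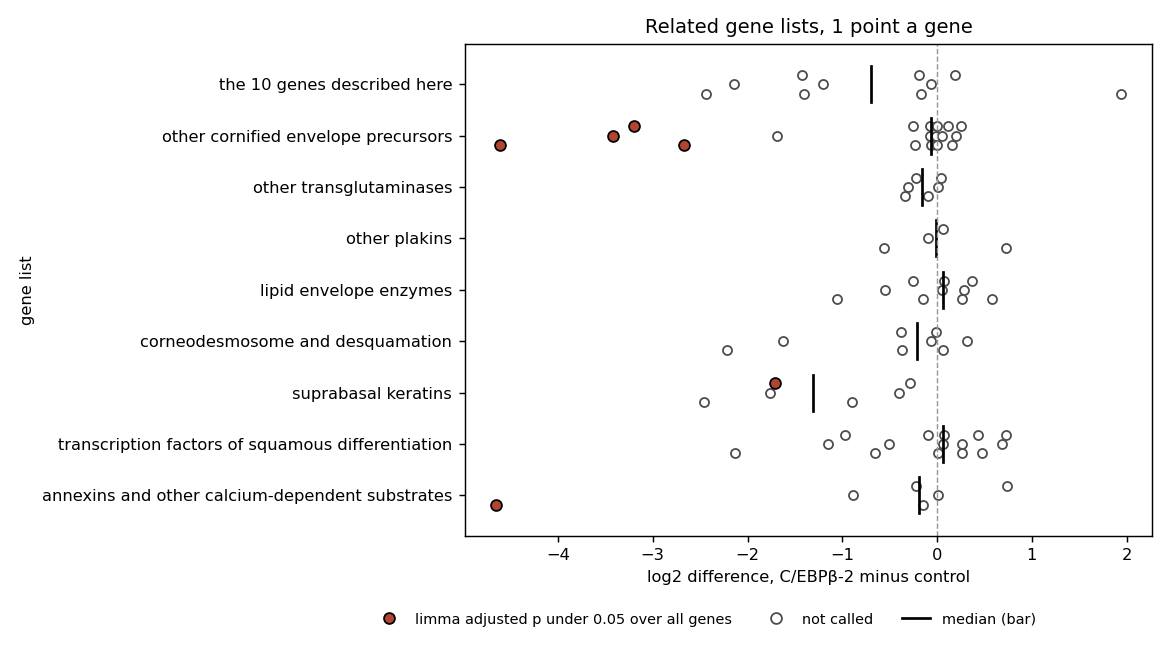
Log2 difference, C/EBPbeta-2 minus control (horizontal axis), of the 10 genes and of 8 related lists, with 1 point a gene, filled where limma called it, and a bar at each median. None of the 10 genes is filled, and the 6 filled points of the lists lie between -4.65 and -1.71.

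Genes whose log2 levels ran most like 3 of the members over the 6 arrays were found by Pearson's r among genes with a mean of at least 5. For TGM1 these were TINCR (r = 0.991), CRACDL (0.991) and NMI (0.990), which differed by -1.95, -3.36 and -1.24. Of these CRACDL was called (limma adjusted p = 0.0479), and TINCR (0.0854) and NMI (0.147) were not. On the C/EBPbeta-2 arrays CRACDL was dim (3.00 to 3.71) and TINCR lay near or under the array medians (4.06 to 4.52), so the sizes of both are uncertain. For TGM2 they were ACP2 (0.996), GAS2L1 (0.993) and EPHA2 (0.988), which differed by 0.63, 0.67 and 0.83. For IVL they were HIP1R (0.989), SYTL3 (0.983) and MICAL1 (0.983), each highest on C/EBPbeta-2 replicate 3. With 6 arrays and 11297 or 11298 genes ranked, such values are a description.

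Markers of epithelial identity were bright in both groups: all 6 measured of 9 had group means above the array medians, and the mean over them was 10.11 to 10.37 on C/EBPbeta-2 arrays and 10.68 to 11.16 on control arrays. KRT5 read 12.38 to 12.69 with C/EBPbeta-2 and 12.44 to 12.93 in control. The basal keratin KRT14 (-3.00) and the adhesion protein CDH1 (-2.14) fell, calls that were lost without most single arrays (adjusted p 0.0173 to 0.199 and 0.0481 to 0.159). Over all genes, 0.182% were called lower. LAMB3, a laminin chain of the basement membrane, differed by 1.17, at an unadjusted p under 0.05 without a call (adjusted p = 0.833), and ITGB4 and EPCAM differed by -0.51 and 0.03. Of 8 luminal markers, 5 had means above the array medians in each group (list mean 6.75 to 6.78 on C/EBPbeta-2 arrays and 6.81 to 7.01 on control arrays), and MUC1 differed by -1.46 with no overlap (adjusted p = 0.319). Of 8 fibroblast markers 3 did, with a list mean of 4.69 to 5.15 with C/EBPbeta-2 and 4.94 to 5.32 in control. DCN (decorin) read 7.11 to 8.16 with C/EBPbeta-2 and 8.98 to 11.76 in control, a difference of -2.61 with no overlap (adjusted p = 0.417). LUM read 2.62 to 2.92 with C/EBPbeta-2 and 2.61 to 2.86 in control. Of 4 endothelial markers 1 had a mean above the array medians with C/EBPbeta-2 and 2 in control. The list mean was 3.92 to 4.07, against 4.05 to 4.40, and KDR differed by -0.68 with no overlap (adjusted p = 0.659). Of 4 leukocyte markers 1 had a mean above the array medians with C/EBPbeta-2 and 2 in control (list mean 4.70 to 5.04, against 4.49 to 4.58). CD14 read 6.85 to 7.28 with C/EBPbeta-2 and 5.98 to 6.45 in control, a difference of 0.92 with no overlap (adjusted p = 0.266). PTPRC read 3.11 to 3.63 with C/EBPbeta-2 and 3.11 to 3.48 in control. The part of these markers in the results for the 10 genes was not tested. The values have no true zero, so no marker can be said to be at 0.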

How the data were processed

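The deposited table holds 1 intensity per probe set and array on a linear scale (4.17 to 17825), and the submitters' processing notes name RMA with no version. Per the labels' protocols, biotin-labelled RNA was made from total RNA with an oligo-dT primer. Precision is limited by 3 arrays a group. The intensities were log2-transformed without a pseudocount, and not normalized further. The 62 AFFX control probe sets were set aside, leaving 54613, of which 41091 had 1 gene symbol, 1801 several and 11721 none (41037 matched RefSeq by gene ID, and 0 symbols were updated). For a gene with several probe sets the brightest by mean log2 stood for it, which gave 19775 genes.

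Limma 3.58.1 (lmFit, eBayes, R 4.3.3) tested C/EBPbeta-2 minus control over 6 arrays, two-sided, with Benjamini-Hochberg adjustment over all probe sets or all genes and a call at adjusted p under 0.05. All adjusted p-values are limma's, and standard errors and intervals of genes come from the gene fit. The fit was tested on simulated data. Python 3.11.15, pandas 2.3.3, numpy 2.4.6 and matplotlib 3.10.9 were used.

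The members and the lists were chosen with earlier results of these data known. Named were CEBPB, every member, every called gene of a list and the 2 with the largest size of difference, list genes at an unadjusted p under 0.05 where at most 5, and the 3 genes most like IVL, TGM1 and TGM2. LORICRIN, FLG, PLEC, MACF1, LUM, KRT5, ITGB4, EPCAM, PTPRC and DMKN were named outside this rule, after their values were seen. A planned comparison of protein sequences was not run. Alternatives left out each array, added a replicate or spike-level term, changed the scaling, pseudocount, filter, prior, array weights, threshold or choice of probe set, and, chosen after seeing the data, left out both arrays with most 18S signal.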

Additional observations from a re-analysis of the deposited data

How the results depend on the processing

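The 16 probe sets held 0 calls in every alternative except those without control replicate 2 (1) and with array weights (1), a range of 0 to 1 with 1 array left out. The 10 genes held 0 calls, but 1 (TGM1) at an adjusted p under 0.10, after quantile normalization, without dim probe sets, with a trended and robust prior, with a spike level term and with the mean of probe sets, and 2 (TGM1 and TGM2) with array weights. Leaving out 1 array gave 0 to 3 member genes called, the 3 being TGM1, PPL and KRTDAP without control replicate 2. The directions of TGM1, TGM2, TGM3, PPL, EVPL, SCEL, KRTDAP and SBSN at gene level held in every alternative run. IVL turned to -0.47 without C/EBPbeta-2 replicate 3 (range with 1 array left out -0.47 to 0.56) and CNFN to 0.10 without control replicate 3 (range -0.25 to 0.10). Probe set 216183_at of TGM2 turned to -0.068 without C/EBPbeta-2 replicate 1 and -0.035 without control replicate 3 (range with 1 array left out -0.068 to 0.31). Probe set 1554920_at of SCEL turned to 0.074 without control replicate 2 (range -0.090 to 0.074), 0.051 with array weights and 0.099 without both arrays with most 18S signal. The causes were not tested.

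Over the whole array, 36 probe sets and 54 genes were called (15 and 18 of them higher). These counts were 92 and 94 at an adjusted p under 0.10, 17 and 15 with a pseudocount of 16, 122 and 214 with array weights, and 0 and 1 without both arrays with most 18S signal. Probe sets numbered 78 without dim probe sets and 67 with a trended and robust prior. With 1 array left out, 5 to 37 probe sets, 8 to 75 genes and 1 to 6 of the list genes were called. The list genes, 6 as reported, numbered 2 with a pseudocount of 16 and 0 without the arrays with most 18S signal. With the replicate number as a block, 0 probe sets, 0 genes and 0 list genes were called, and TGM1 had an adjusted p of 0.314. Same-numbered samples (replicates 1, 2 and 3) correlated in their deviations from the group means at -0.45, -0.55 and 0.42. The same number thus marked the control array most like it for C/EBPbeta-2 replicate 3 but not for replicates 1 and 2. With 3 arrays a group these correlations depend on each other and cannot settle whether samples were paired. The highest correlations across groups were those of C/EBPbeta-2 replicate 1 with control replicate 2 (0.64, the arrays with most 18S signal) and C/EBPbeta-2 replicate 2 with control replicate 1 (0.66, the low-spike pair), and the labels give no such pairing. Without dim probe sets IVL, TGM3 and KRTDAP could not be tested, nor CNFN without _x_at and _s_at probe sets. With only the 250 bases before the start, 6.57% of RefSeq windows held TGANTCA, 33.2% TTNNGNAA and 9.05% TTGCNNAA.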
